A study of Mus musculus with 15 samples.

Results

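The respiratory chain genes were taken from the count table by symbol, as the genes typed protein coding whose names mark the subunits of complexes I to V and their close namesakes. The rule found 110 of the 55486 genes listed, of which 97 are encoded in the nucleus and 13 in mitochondrial DNA (mtDNA). The nuclear members fall into 45 genes of complex I, 4 of complex II, 9 of complex III, 21 of complex IV and 18 of complex V. The mtDNA members fall into 7 genes of complex I, 1 of complex III, 3 of complex IV and 2 of complex V.

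The libraries came from macrophages sorted by flow cytometry from primary mouse brain tumours. All tumours were driven by PDGFB, expressed in Nestin-positive progenitor cells, in animals with the Ink4a/ArfKO genotype, and no group from a brain without a tumour or without this genotype was analysed here. The cells were microglia, which reside in the brain from early development on, or monocyte-derived macrophages (MDM), recruited from blood monocytes, and each were separated into lipid-laden and non-lipid-laden cells. Libraries bore the numbers 221, 224, 431 and 718, with 4 libraries in each group except lipid-laden MDM, which had 3 (221, 224 and 718). The labels give no age, no stain or gate for the lipid load, and do not say whether a number stands for 1 animal, so p-values may partly measure technical spread.

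Complex I takes electrons from NADH and complex II takes them from succinate. Complex III passes them on to cytochrome c, and complex IV hands them to oxygen. Proton pumping by complexes I, III and IV drives complex V, the ATP synthase. Complex II is built from nuclear genes alone, while the other complexes join nuclear subunits with a few core subunits made inside the mitochondrion from mtDNA. In macrophages the chain supplies ATP, and the balance between respiration and glycolysis is known to shift with the activation state of the cell.

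Total counts ranged from 7798952 to 11419338 per library, and levels are given as CPM, counts relative to library sizes scaled by the TMM method. Of the 14843 genes kept for testing, 92 nuclear and 10 mtDNA genes were members. Levels of the microglial and MDM markers followed the labels, except for the microglial markers in lipid-laden MDM. The summed level of 8 microglial markers, all detected, was 9074 to 13583 CPM in microglia, 5862 to 14640 in lipid-laden microglia, 2280 to 3625 in MDM and 6222 to 9359 in lipid-laden MDM. The 8 MDM markers summed to 248 to 388, 277 to 681, 3053 to 3678 and 1259 to 1533 CPM in the same order. Both sums in lipid-laden MDM lay apart from those of MDM, toward the microglial side. Their microglial sum lay within the range of lipid-laden microglia, while their MDM marker sum lay above both microglial groups. The 5 general macrophage markers summed to 5918 to 6705 CPM in microglia and 5338 to 7187 in lipid-laden microglia. The macrophage sum was 4104 to 4728 CPM in MDM, below all other groups, and 5493 to 6766 in lipid-laden MDM. Markers of lipid load are given further on. In bulk libraries of this kind, fewer cells of a type and less RNA per cell cannot be told apart.

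The nuclear members were expressed across all 4 groups. Counts were found for 93 of the 97, and 91 had counts in every library. Per exon length, as CPM per kilobase of exon (RPKM) averaged over libraries, Cox4i1 stood highest at 525 RPKM, followed by Cox6a1 at 475, Atp5b at 466, Cox6b1 at 413 and Uqcrc1 at 399. Cox4i1, Cox6a1 and Cox6b1 are nuclear subunits around the catalytic core of complex IV. Atp5b encodes the catalytic beta subunit of the ATP synthase, and Uqcrc1 a core-fold protein of complex III. At the other end lay assembly factors such as Ndufaf4 at 6.05 RPKM and Ndufaf5 at 9.96 RPKM, and alternative isoforms described further on. Ndufb2, an accessory subunit of complex I, was lower than these assembly factors, at 1.43 RPKM over an exon length of 4375 bases. The members that did not enter the test were Cox7b2, Cox8b, Cox8c and a second, overlapping gene entry named Atp5o, all with 0 counts in 15 libraries, and Cox5b-ps, a pseudogene by name, with 78 counts. A count of 0 over all libraries allows up to 0.0214 CPM, on the basis of 3 counts and counting error only.

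The mtDNA members split into 2 sets by level. In all libraries together mt-Cytb, the mtDNA-encoded subunit of complex III, had 189642 counts, and mt-Co1, the catalytic subunit of complex IV, had 172197. The complex I subunits followed, with 124797 counts for mt-Nd1, 68287 for mt-Nd5, 51514 for mt-Nd4, 29392 for mt-Nd2 and 7062 for mt-Nd6. The other 6 were nearly absent: mt-Co2 had 190 counts, mt-Atp6 179, mt-Co3 113, mt-Nd3 4, mt-Atp8 4 and mt-Nd4l 3. These 6 genes are neighbours on mtDNA, lying between mt-Co1 and mt-Nd4, and they include the remaining complex IV core subunits and both mtDNA-encoded subunits of complex V.

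The near-absent genes have copies in the nuclear genome. In the GENCODE M21 annotation (GRCm38, the assembly also called mm10), 7 unprocessed pseudogenes lie together on the minus strand of chromosome 1, between 24611535 and 24616197. Of the 50-base words in the transcripts of mt-Co2, mt-Co3, mt-Atp6, mt-Nd4l and mt-Nd3, 100%, 99.9%, 99.5%, 98.8% and 98.0% also occurred in a transcript of another gene. The corresponding share was 62.2% for mt-Nd4, 51.1% for mt-Co1 and 8.19% for mt-Nd2, and it was 0% for mt-Nd1, mt-Nd6 and mt-Cytb. The share was also 0% for mt-Atp8, which overlaps mt-Atp6 and shares 43 bases with the copy Gm10925. Only annotated transcripts were searched, so a copy outside them would not be seen. The copies themselves held few counts, from 6 for Gm10222 to 336 for Gm28438 over all libraries. How reads with several positions were aligned and counted is not given in the labels, and the part of this sequence identity in the low counts was not tested.

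The first 60 bases of mt-Co2 and mt-Co3, from the GENCODE M21 transcripts, are shown with the copies Gm28661 (chromosome 1, 24614885 to 24615565) and Gm28437 (24613189 to 24613971), since no base in them separates the genes. The mt-Co1 pair, bases 1063 to 1122, covers the single mismatch (A1066T, in capitals, counted from 1 at the 5′ end of mt-Co1) over the 483 bases aligned with Gm29216 (24615706 to 24616197).
mt-Co2: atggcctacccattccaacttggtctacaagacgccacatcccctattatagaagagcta
Gm28661: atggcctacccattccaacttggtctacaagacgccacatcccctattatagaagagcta
mt-Co3: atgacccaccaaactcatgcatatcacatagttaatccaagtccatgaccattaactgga
Gm28437: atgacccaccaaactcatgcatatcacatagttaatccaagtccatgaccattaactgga
mt-Co1: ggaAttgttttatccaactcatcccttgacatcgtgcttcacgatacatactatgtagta
Gm29216: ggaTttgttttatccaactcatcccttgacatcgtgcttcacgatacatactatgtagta

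**Figure D1:**
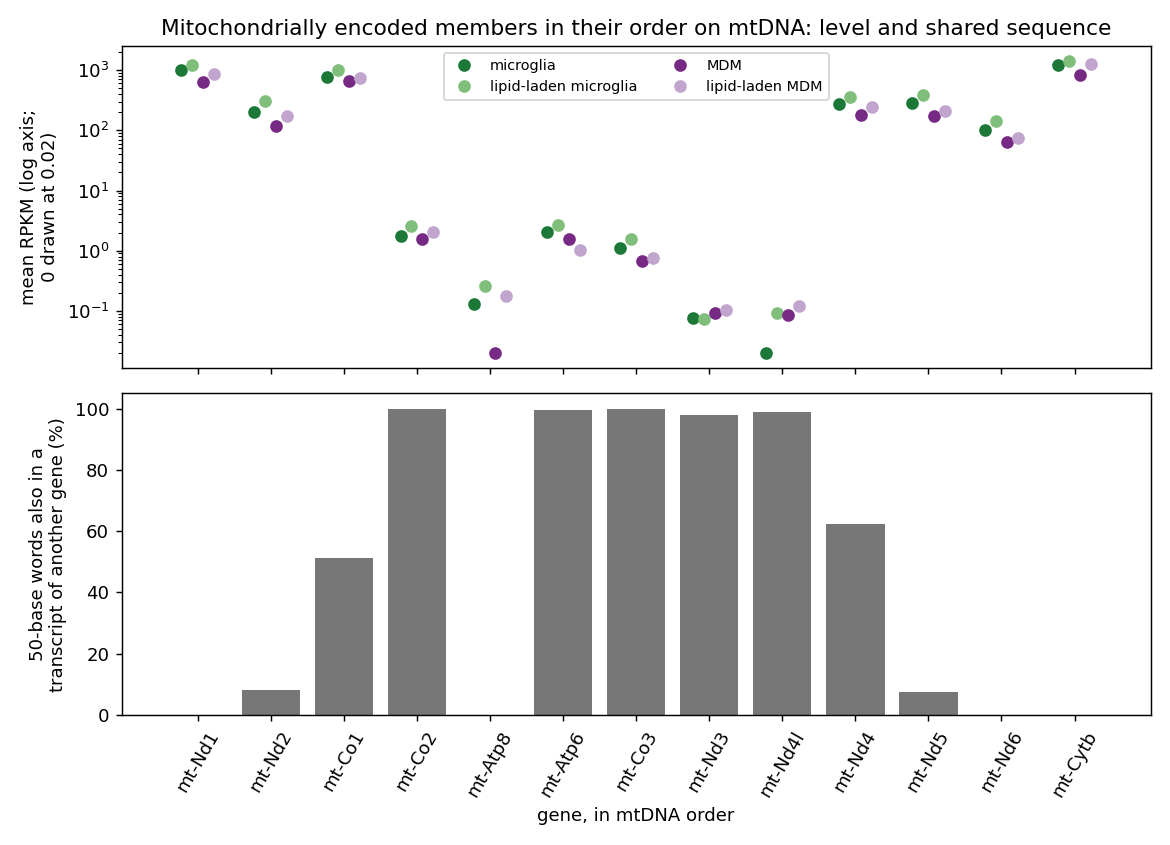
The 13 mtDNA-encoded members in their order on mtDNA. Top, mean RPKM per group on a log axis, with 0 drawn at 0.02; bottom, percent of the 50-base words of each transcript that also occur in a transcript of another gene. The 6 genes from mt-Co2 to mt-Nd4l lie at or below a few RPKM in all 4 groups, and 5 of them share nearly their whole sequence.

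Summed over members, the 2 genomes ordered the groups differently. The nuclear members summed to 11265 ± 748 CPM in microglia, 13189 ± 995 in lipid-laden microglia and 13582 ± 888 in MDM (SD, n = 4 each), and to 13198 ± 2617 in lipid-laden MDM (n = 3). Microglia ranged from 10313 to 12106 CPM and MDM from 12931 to 14895, so these ranges did not overlap. The 3 lipid-laden MDM libraries lay at 16139 (number 221), 11126 (224) and 12330 CPM (718), a range that covered both. The mtDNA members summed to 4693 ± 886, 5957 ± 514, 3303 ± 263 and 4364 ± 1196 CPM in the same order of groups, with MDM from 2946 to 3580 CPM below all microglia (4041 to 5965) and all lipid-laden microglia (5223 to 6392).

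The ratio of the mtDNA sum to the nuclear sum was 0.38, 0.39, 0.54 and 0.36 in microglia numbered 221, 224, 431 and 718. It was 0.45, 0.45, 0.47 and 0.44 in lipid-laden microglia, 0.22, 0.28, 0.25 and 0.22 in MDM, and 0.35, 0.30 and 0.34 in lipid-laden MDM (221, 224 and 718). MDM therefore lay below every other group, and the lipid-laden MDM lay between MDM and both microglial groups, without overlap. These ratios are a description over members that share a library. The 2 mitochondrial ribosomal RNAs summed to 2573 ± 561 CPM in microglia and 2336 ± 754 in MDM, which overlapped. With lipid load they summed to 3533 ± 655 CPM in microglia (2932 to 4223) and 2039 ± 493 in MDM (1736 to 2608), which did not overlap and differed in the direction of the mtDNA members.

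**Figure D2:**
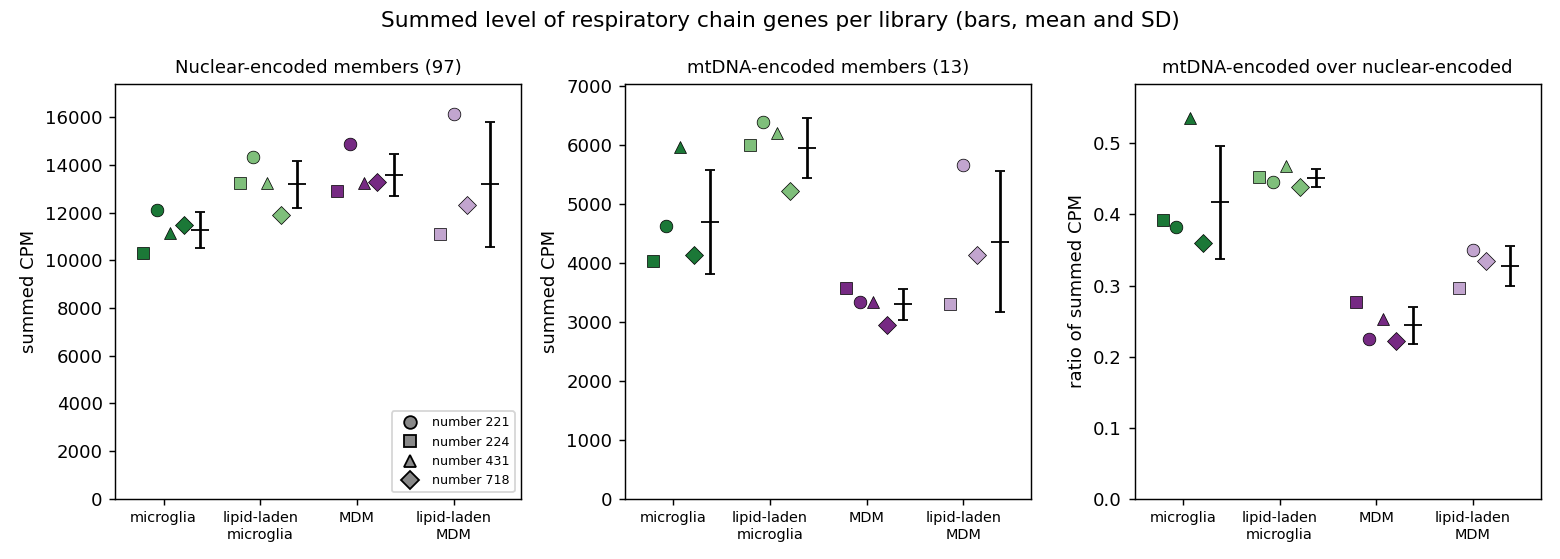
Summed CPM of the 97 nuclear and the 13 mtDNA-encoded members, and the ratio of the sums, per library and group; marker shapes give the library number, and bars the mean and SD. The MDM ratios of 0.22 to 0.28 lie below those of all other groups, and the lipid-laden MDM library of number 221 has the highest nuclear sum.

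Comparing MDM with microglia, both without lipid load, addresses how the chain differs between macrophages of different origin. In edgeR's quasi-likelihood test with Benjamini-Hochberg adjustment over all genes tested, 19 of the 92 nuclear members were higher in MDM and 1 was lower. Of all genes tested, 23.2% were called, 10.7% higher and 12.5% lower. The opposite held for mtDNA, where 4 of 10 members were lower in MDM and 0 higher, with 6 of the 10 at an unadjusted p under 0.05. DESeq2 called 23 nuclear members higher and 1 lower, and 5 mtDNA members lower, against 12.8% higher and 15.0% lower of all genes. In edgeR the 20 nuclear calls became 13 with upper-quartile scaling and 11 without MDM number 221.

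The median log2 fold change was 0.27 over the nuclear members and -0.64 over the mtDNA members, with 77 of 92 positive in the first and 0 of 10 in the second. Over all genes tested the median was -0.12, with 43.8% positive. Nuclear members have short transcripts, with a median exon length of 992 bases against 3128 over all genes tested. Among the 1018 genes tested with an exon length under 1500 bases and a mean log2 CPM of 4 or more, members included, the median was 0.25, 69.4% were positive, and 259 were higher and 78 lower. Both are larger shares than the 19 higher and 1 lower of 92 nuclear members. The part of length and level in the nuclear result was not tested. The mtDNA members had the opposite sign to most of that class.

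Complex I contributed 7 of the 19 higher members. Ndufa6, an accessory subunit, was at 54.3, 49.8, 50.5 and 55.8 CPM in microglia numbered 221, 224, 431 and 718, and at 87.5, 85.6, 79.6 and 95.8 CPM in MDM. Every MDM library lay above every microglial one, with a log2 fold change of 0.73 (SE 0.15, adjusted p = 0.00212 in edgeR). Ndufaf8, an assembly factor of complex I, was at 31.2, 26.0, 28.9 and 28.8 CPM in microglia and 47.3, 44.9, 52.8 and 52.7 CPM in MDM, a log2 fold change of 0.78 (SE 0.17, adjusted p = 0.00302 in edgeR). Ndufb1-ps, named as a pseudogene of the subunit gene Ndufb1 and placed on chromosome 12 at 101968090 to 101977068, had the smallest p of all nuclear members. It was at 35.4, 31.3, 36.4 and 34.3 CPM in microglia and 64.1, 55.0, 66.9 and 72.1 CPM in MDM, a log2 fold change of 0.91 (SE 0.17, adjusted p = 0.00129 in edgeR). The deposited table types it as protein coding, whereas GENCODE M21 types it as a long noncoding RNA from a bidirectional promoter. The RefSeq gene matched to this entry is Ndufb1 itself, with a promoter window at 101975689 to 101975988, inside the span of the entry.

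The other complex I members called were Ndufb7 (log2 fold change 0.60), Ndufv1, which carries the NADH binding site (0.61), Ndufa7 (0.59) and Ndufa13 (0.46). Of 29 accessory subunits 28 were positive and 4 called, whereas of the 7 nuclear core subunits Ndufv1 alone was called. Ndufs1, the core subunit that holds several iron-sulphur clusters, was at 84.1 ± 7.61 CPM in microglia and 74.7 ± 9.59 in MDM and did not pass (log2 fold change -0.17, adjusted p = 0.413 in edgeR). Of the 8 assembly factors, Ndufaf8 was called and 3 were positive, with a median of -0.12.

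None of the 4 complex II genes passed in edgeR, DESeq2 or limma-voom, and 1 was at an unadjusted p under 0.05 in edgeR. It was Sdha, the flavoprotein that oxidises succinate, at 309 ± 49.3 CPM in microglia and 395 ± 73.9 in MDM (log2 fold change 0.36). Sdhb, the iron-sulphur subunit, was at 377 ± 48.0 and 435 ± 52.1 CPM, and the membrane anchors Sdhc at 124 ± 5.76 and 116 ± 17.6 and Sdhd at 242 ± 45.5 and 300 ± 42.9 CPM.

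In complex III all 9 nuclear members were positive and 2 were called. Uqcrfs1, the Rieske iron-sulphur protein, was at 134 ± 18.9 CPM in microglia and 191 ± 18.7 in MDM (log2 fold change 0.51, SE 0.15, adjusted p = 0.0193 in edgeR). Uqcrh, the hinge protein, was at 85.7 ± 4.18 and 118 ± 8.44 CPM (log2 fold change 0.46, adjusted p = 0.0226 in edgeR). Cyc1, cytochrome c1, was at 212 ± 18.9 and 237 ± 29.1 CPM and did not pass (adjusted p = 0.45 in edgeR).

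Complex IV held calls in both directions. Cox7a2l, which takes part in joining complexes III and IV into supercomplexes, lies on chromosome 17 at 83501918 to 83517330 (mm10). It was at 122, 130, 116 and 127 CPM in microglia numbered 221, 224, 431 and 718 and at 204, 242, 222 and 179 CPM in MDM. All 4 MDM libraries exceeded all 4 microglial ones, with a log2 fold change of 0.78 (SE 0.16, adjusted p = 0.00209 in edgeR). The structural subunits Cox5a (0.76), Cox5b (0.52) and Cox8a (0.47) were also higher by their log2 fold changes. Their partner Cox4i1, by contrast, was at 368 ± 13.0 CPM in microglia and 387 ± 21.7 in MDM and did not pass.

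Cox6a2 was the single nuclear member lower in MDM. It encodes the isoform of subunit 6a best known from heart and skeletal muscle, and lies on chromosome 7 at 128205435 to 128206387. Levels were 13.5, 27.5, 41.3 and 26.3 CPM in microglia numbered 221, 224, 431 and 718 and 2.57, 5.14, 11.1 and 5.16 CPM in MDM. Within each group number 431 was highest and 221 lowest, and the groups did not overlap. The log2 fold change was -2.18 (SE 0.46, adjusted p = 0.00285 in edgeR). The widely expressed isoform Cox6a1 was at 248 ± 6.96 and 278 ± 14.2 CPM and did not pass.

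Complex V contributed 6 higher members, 3 of them in the F1 head. Atp5d, the delta subunit of its central stalk, was at 156, 174, 178 and 175 CPM in microglia numbered 221, 224, 431 and 718 and at 255, 259, 261 and 239 CPM in MDM, a log2 fold change of 0.57 (SE 0.12, adjusted p = 0.00323 in edgeR). Atp5e, the epsilon subunit, was at 74.0 ± 7.83 and 119 ± 6.96 CPM (0.68, SE 0.18, adjusted p = 0.011 in edgeR), and Atp5c1, the gamma subunit, at 309 ± 42.9 and 415 ± 51.3 CPM (0.42, with overlapping groups). These 3 form the rotating central stalk. The subunits around it did not pass: Atp5a1 (alpha) was at 594 ± 25.5 and 687 ± 49.5 CPM, and Atp5b (beta) at 861 ± 86.0 and 880 ± 81.2 CPM.

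Atp5h, a subunit of the peripheral stalk, was at 121, 100, 120 and 122 CPM in microglia numbered 221, 224, 431 and 718, and at 203, 163, 181 and 164 CPM in MDM. MDM lay above microglia in every library, with a log2 fold change of 0.62 (SE 0.14, adjusted p = 0.00435 in edgeR). Of the 50-base words of Atp5h, 47.9% also occur in transcripts of other genes, so its value is uncertain, as are those of Cox5b (25.9%), Atp5pb (23.2%) and Cox7a2l (17.7%). The remaining calls were Atp5pb (0.41), another peripheral stalk subunit, and Atp5md (0.63), a small membrane subunit.

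**Figure D3:**
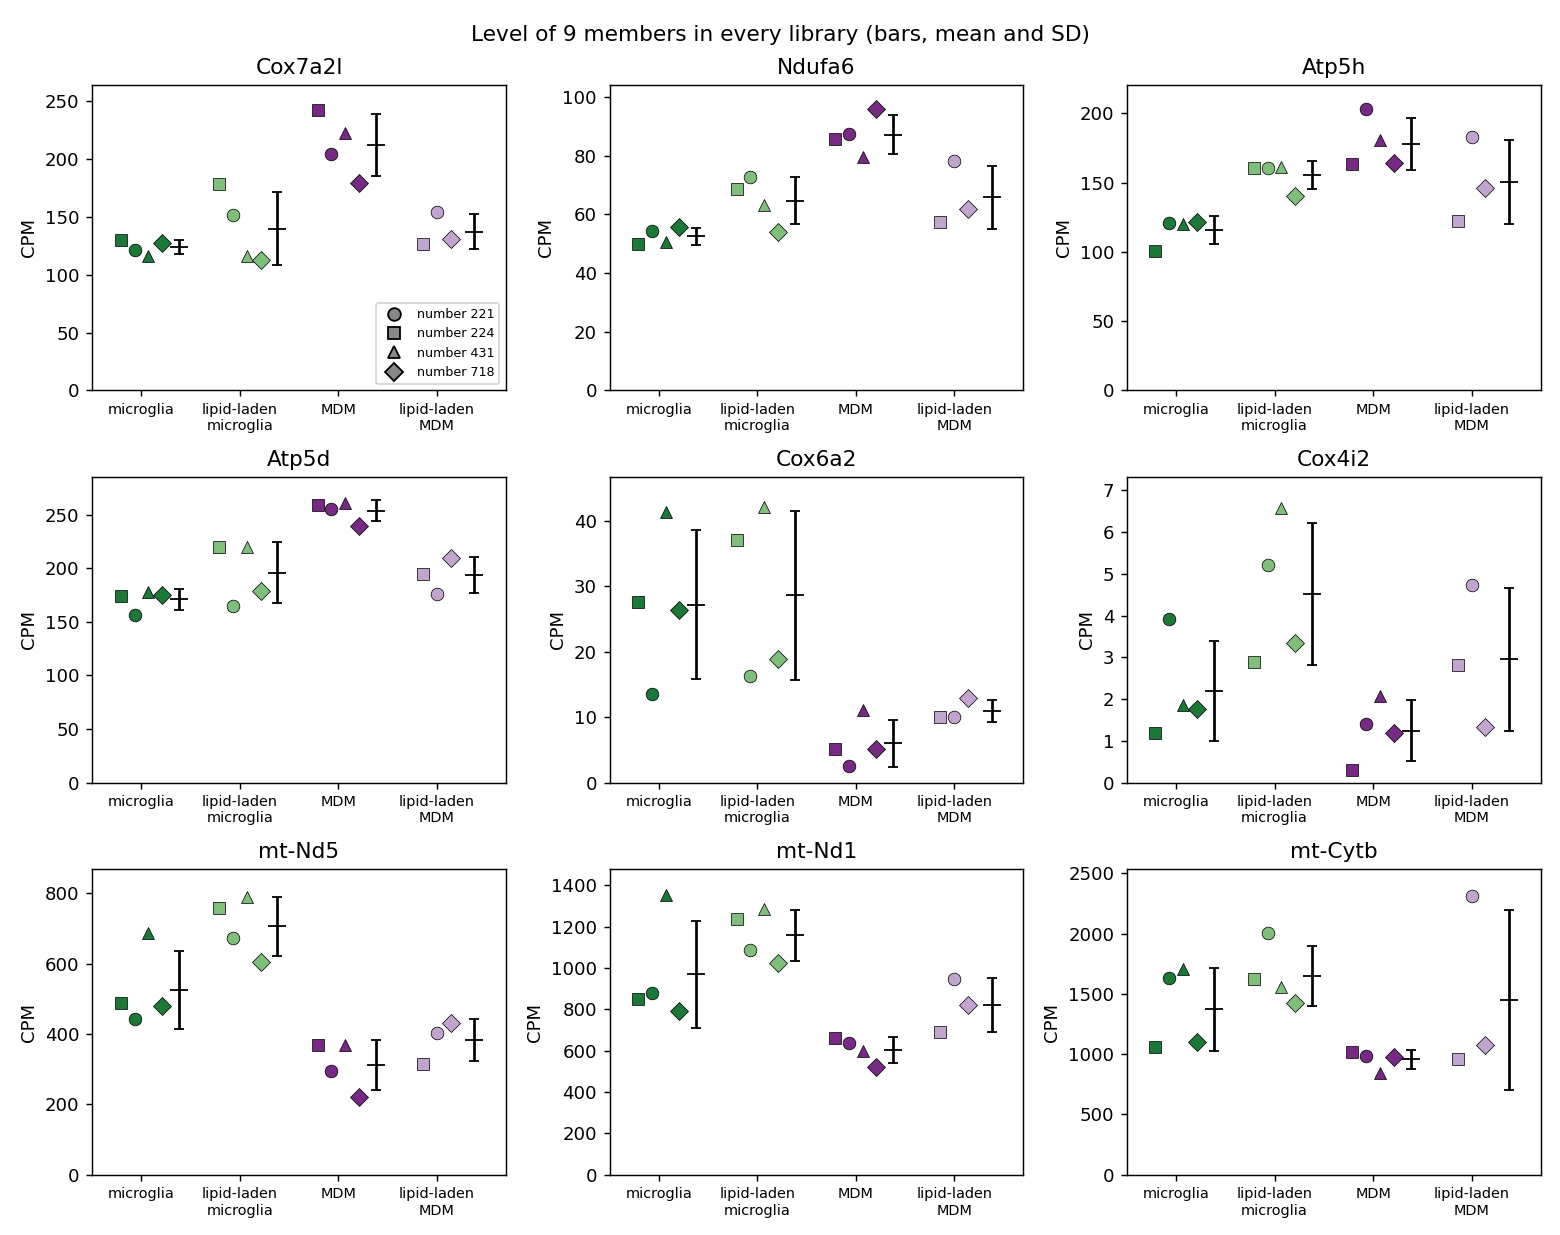
CPM of 9 members in every library, by group; marker shapes give the library number, and bars the mean and SD. For Cox7a2l, Ndufa6, Atp5h and Atp5d all MDM points lie above all microglial points, and for Cox6a2, mt-Nd5, mt-Nd1 and mt-Cytb all MDM points lie below all microglial points.

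The 4 mtDNA members lower in MDM all encode membrane subunits of complex I. mt-Nd1 was at 880, 850, 1352 and 794 CPM in microglia numbered 221, 224, 431 and 718 and at 636, 663, 600 and 519 CPM in MDM. All MDM values lay below all microglial values, with a log2 fold change of -0.68 (SE 0.17, adjusted p = 0.00732 in edgeR). mt-Nd5 was at 444, 490, 688 and 480 CPM in microglia and 297, 368, 368 and 220 CPM in MDM, again without overlap (log2 fold change -0.75, SE 0.18, adjusted p = 0.00773 in edgeR). For mt-Nd4 the values were 336, 367, 470 and 362 CPM against 235, 276, 269 and 228 CPM, also apart (-0.61, SE 0.14, adjusted p = 0.00579 in edgeR). Because of the sequence shared with other transcripts, the values of mt-Nd4 (62.2%) and mt-Co1 (51.1%) are uncertain in all comparisons.

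The fourth, mt-Nd2, was at 140, 245, 248 and 219 CPM in microglia and 109, 115, 168 and 104 CPM in MDM (-0.78, SE 0.22, adjusted p = 0.0185 in edgeR). Here MDM number 431 lay above microglia number 221, so the groups overlapped, and the call was lost without microglia number 224 or 431 or without MDM number 221, 224 or 718. mt-Cytb was at 1373 ± 343 CPM in microglia and 957 ± 78.4 in MDM and did not pass (log2 fold change -0.52, adjusted p = 0.132 in edgeR), although its groups did not overlap. mt-Co1 was at 1172 ± 203 and 1017 ± 97.1 CPM, which overlapped (-0.21). mt-Nd6, the 1 protein gene on the other mtDNA strand, was at 52.9 ± 17.1 and 32.6 ± 8.54 CPM (-0.70, adjusted p = 0.0571 in edgeR). mt-Nd6 did pass in DESeq2, with upper-quartile scaling and without microglia number 221. It also passed with the number as a block in edgeR and in DESeq2, and mt-Cytb in the last of these alone.

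Markers of other cells differed between these groups too. Dendritic cell markers (4 of 4 found) summed to 15.7 to 27.7 CPM in microglia and 314 to 964 in MDM, T and NK cell markers (5 of 5) to 0 to 4.62 and 19.9 to 119, and glioma and progenitor markers (7 of 7) to 119 to 380 and 12 to 24.6. Astrocyte markers (5 of 5) summed to 99.4 to 172 and 51 to 75.2 CPM, and oligodendrocyte markers (6 of 6) to 156 to 202 and 216 to 245. None of these 5 sums overlapped between the groups. At 0 in every library of a group were Cd3e and Gzmb (T and NK) in microglia, Mog (oligodendrocyte) in both, and Aqp4 (astrocyte) in MDM. Their part in the differences of the respiratory chain genes was not tested.

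**Figure D4:**
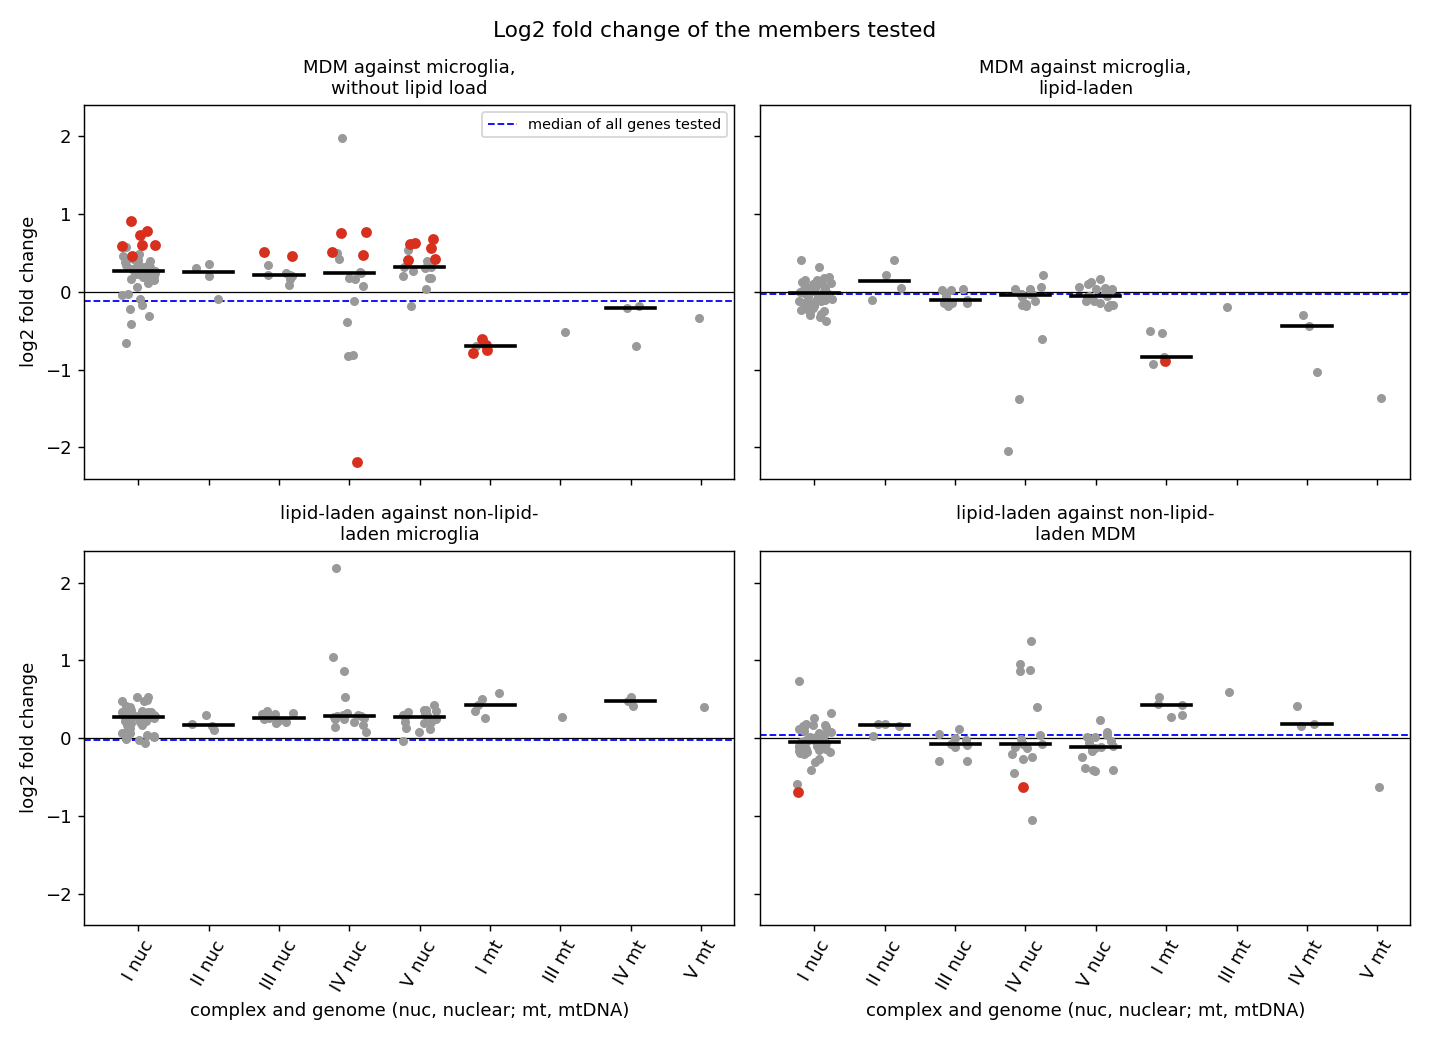
Log2 fold change of the 92 nuclear and 10 mtDNA members tested, by complex and genome, in 4 comparisons; points in red passed edgeR's test at an adjusted p under 0.05, black bars are medians, and the dashed line is the median of all genes tested. Without lipid load (top left) the called nuclear members lie above 0 except Cox6a2, and the called mtDNA members lie below.

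Promoter windows of the nuclear members, 250 bases before to 50 after the start, were read from RefSeq (GRCm38.p6) for 77 distinct windows of the 97 members, counting once the window shared by the 2 Atp5o entries. The NRF1 motif, named for a factor known to act on respiratory chain genes and matched by the first capitals of the Atp5h window shown further on, was in 23.4% of them, against 4.78% of 27025 windows of all genes, on either strand. The ETS motif CCGGAAG was in 23.4% against 9.12%, the YY1 motif AANATGGCG in 11.7% against 2.51%, the CRE motif TGACGTCA in 5.19% against 1.88%, and the ERR motif TNAAGGTCA in 3.90% against 1.26%. TGCGCA, which can overlap the NRF1 motif, was in 24.7% against 8.06%, the CCAAT box CCAAT in 44.2% against 37.9%, and the core ACGTG of the hypoxia response element in 24.7% against 19.7%. Motif matches are letters in a window and show no binding.

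The windows of 3 members higher in MDM are shown, being those called members with at least 3 matches that end by base 3 after the start. Capitals mark the ETS motif, the CCAAT box and, in Atp5h, the NRF1 motif, on the gene's strand or its reverse complement. They span chr2:174464102-174464213 (minus strand, Atp5e), chr11:115419920-115420070 (minus strand, Atp5h) and chr11:120098713-120098933 (plus strand, Ndufaf8), and begin 112, 151 and 221 bases before the start.
Atp5e: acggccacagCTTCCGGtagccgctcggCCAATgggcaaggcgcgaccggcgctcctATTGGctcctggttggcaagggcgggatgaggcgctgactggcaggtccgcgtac
Atp5h: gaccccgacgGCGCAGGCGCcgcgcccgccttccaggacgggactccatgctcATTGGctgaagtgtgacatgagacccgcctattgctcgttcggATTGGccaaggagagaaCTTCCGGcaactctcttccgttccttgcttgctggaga
Ndufaf8: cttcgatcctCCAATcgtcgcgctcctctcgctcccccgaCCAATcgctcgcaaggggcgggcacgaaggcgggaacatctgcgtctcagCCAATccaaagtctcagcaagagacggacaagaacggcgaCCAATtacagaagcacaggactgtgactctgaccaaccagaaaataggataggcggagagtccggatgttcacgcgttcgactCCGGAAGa

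No nuclear member passed in edgeR between the lipid-laden populations. In the edgeR test of lipid-laden MDM against lipid-laden microglia, 0 of 92 nuclear members passed, with 2 at an unadjusted p under 0.05, and DESeq2 and limma-voom also called 0. Of all genes tested 2.78% were called, 2.2% higher and 0.579% lower. The nuclear median was -0.03, with 36 of 92 positive, and leaving out single libraries moved it between -0.26 and 0.10. Cox6a2 was at 16.3, 37.1, 42.0 and 18.9 CPM in lipid-laden microglia and 10.0, 9.95 and 12.9 CPM in lipid-laden MDM (log2 fold change -1.38, adjusted p = 0.182 in edgeR). The groups did not overlap for this gene, but the difference did not pass in edgeR. Same-numbered libraries deviated together here too, and with the number as a block DESeq2 called Cox6a2 lower (adjusted p = 0.0343), 1 nuclear member, and 6 mtDNA members, against 3.26% of all genes called lower. The block left the edgeR counts of 0 nuclear and 1 mtDNA member.

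For mtDNA the direction was that of the cells without lipid load. All 10 mtDNA members were negative, with a median of -0.68, and 1 passed the edgeR test. Over the 7 above 10 CPM, without the near-absent mt-Co2, mt-Co3 and mt-Atp6, the median was -0.52. mt-Nd5 was at 675, 759, 790 and 605 CPM in lipid-laden microglia numbered 221, 224, 431 and 718 and at 405, 314 and 431 CPM in lipid-laden MDM numbered 221, 224 and 718. Every lipid-laden MDM library lay below every lipid-laden microglial one (log2 fold change -0.88, SE 0.20, adjusted p = 0.0253 in edgeR). The call was lost without lipid-laden microglia number 224 or 431, or without lipid-laden MDM number 221 or 224. DESeq2 without the block called 4 mtDNA members lower, against 1.91% of all genes. Summed markers of other cells also lay apart between these groups, in lipid-laden microglia and lipid-laden MDM at 168 to 437 and 65.1 to 133 CPM for glioma and progenitor cells, 6.23 to 17.2 and 48.1 to 87.5 for dendritic cells, and 0 to 1.81 and 24.9 to 66.6 for T and NK cells. Of the T and NK markers Cd3d, Gzmb and Il2rb were at 0 in lipid-laden microglia. The microglial markers summed to 5862 to 14640 CPM in lipid-laden microglia and 6222 to 9359 in lipid-laden MDM, which overlapped. The MDM markers summed to 277 to 681 and 1259 to 1533 CPM, which lay apart. The part of all these markers in the nuclear and mtDNA results was not tested.

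Comparing lipid-laden with non-lipid-laden microglia addresses what accompanies lipid load within a population. The labels were checked against 8 genes of lipid uptake and storage, all detected, which summed to 3625 to 5610 CPM in microglia and 5287 to 10215 in lipid-laden microglia, and to 4049 to 4955 in MDM and 7079 to 10208 in lipid-laden MDM. Only the MDM ranges lay apart. No gene of the table passed in edgeR (0% of 14843 called, 1367 at an unadjusted p under 0.05), so no member passed either. Of the members, 13 nuclear and 4 mtDNA genes were at an unadjusted p under 0.05, all of them positive. DESeq2 called 1.14% of all genes and 0 members, and limma-voom called 0 members. Because same-numbered microglial libraries deviated together, the fit with the number as a block was run as well. It called 0.802% of all genes and 0 members with edgeR, and 8 nuclear and 2 mtDNA members higher with DESeq2, against 1.87% of all genes called higher there.

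Estimates nevertheless lay to 1 side. Of the nuclear members 88 of 92 were positive, with a median log2 fold change of 0.27, and of the mtDNA members 10 of 10, with a median of 0.42. Over all genes tested 47.6% were positive and the median was -0.02. Among the 1018 short and well expressed genes described above, 80.9% were positive with a median of 0.20, and the part of these properties was not tested.

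The 5 members with the smallest p were Atp5h, Ndufv3, mt-Co1, Ndufa2 and Ndufa7, none of which passed in edgeR with or without the block. All 5 passed in DESeq2 with the number as a block. Atp5h was at 160, 160, 161 and 140 CPM in lipid-laden microglia numbered 221, 224, 431 and 718, beside 121, 100, 120 and 122 CPM without lipid load, so the groups did not overlap (log2 fold change 0.43, SE 0.14, adjusted p = 0.349 in edgeR). mt-Co1 was at 1764, 1459, 1604 and 1391 CPM with lipid load and 1162, 956, 1445 and 1127 without it (0.41, adjusted p = 0.4 in edgeR). Microglia number 431 lay within the lipid-laden range for mt-Co1, so these groups overlapped. Ndufv3, a flavoprotein-associated subunit of complex I, was at 119 ± 21.8 and 84.6 ± 10.4 CPM, and Ndufa2 and Ndufa7, complex I accessory subunits, at 177 ± 28.0 and 134 ± 10.4 CPM and at 144 ± 29.1 and 99.9 ± 15.4 CPM.

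In MDM few nuclear members were called between lipid-laden and non-lipid-laden cells. With edgeR 2 of 92 nuclear members were lower in lipid-laden MDM and 0 higher, against 8.17% of all genes tested (2.96% lower and 5.21% higher). The nuclear median was -0.05, with 35 of 92 positive. It rested on single libraries, at -0.28 without lipid-laden MDM number 221 and 0.09 without number 224.

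Both members called lower had been higher in MDM than in microglia, in a comparison that shares the MDM libraries. Cox7a2l was at 154, 127 and 131 CPM in lipid-laden MDM numbered 221, 224 and 718, below all 4 MDM libraries at 179 to 242 CPM (log2 fold change -0.63, SE 0.17, adjusted p = 0.0329 in edgeR). Ndufb1-ps was at 47.9, 32.8 and 39.2 CPM, below the 55.0 to 72.1 CPM of MDM (-0.69, SE 0.19, adjusted p = 0.0329 in edgeR). The calls depended on the libraries: neither passed without MDM number 431 or without lipid-laden MDM number 224 or 718, and leaving out MDM number 224, 221 or 718 left 1 of them. In lipid-laden MDM the summed microglial markers reached 6222 to 9359 CPM against 2280 to 3625 in MDM, and the dendritic markers 48.1 to 87.5 against 314 to 964. Glioma and progenitor markers summed to 65.1 to 133 CPM in lipid-laden MDM against 12 to 24.6 in MDM. MDM markers summed to 1259 to 1533 against 3053 to 3678, and macrophage markers to 5493 to 6766 against 4104 to 4728. The part of all these sums in the 2 calls was not tested.

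By complex, the 4 genes of complex II were all positive, with log2 fold changes of 0.03 to 0.18, and none passed. Of the other nuclear members of complexes I, III, IV and V, 18 of 45, 2 of 9, 6 of 17 and 5 of 17 were positive. Of the mtDNA members 9 of 10 were positive, with a median of 0.35, and all 7 above 10 CPM, with a median of 0.43. Without a block none passed in edgeR, DESeq2 or limma-voom, with 4, 3 and 3 at an unadjusted p under 0.05. With the number as a block, edgeR called 2 higher and DESeq2 3, mt-Nd1 and mt-Nd4 among them in both. Of all genes 6.12% and 9.39% were called higher there. Same-numbered MDM libraries were not taken as pairs. mt-Nd1 was at 948, 690 and 823 CPM in lipid-laden MDM, above the 519 to 663 CPM of MDM (log2 fold change 0.44, SE 0.18, adjusted p = 0.144 in edgeR). mt-Cytb was at 2310 CPM in lipid-laden MDM number 221 and at 960 and 1079 CPM in numbers 224 and 718, beside 843 to 1022 CPM in MDM, so its fold change of 0.60 came with 1 library far above the rest.

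The difference of the lipid-load effects, that in MDM minus that in microglia, was tested directly. The same test asks whether MDM and microglia differ by another amount with lipid load than without it. No member passed in edgeR, where 2.53% of all genes were called (1.6% higher and 0.93% lower) and 15 nuclear and 0 mtDNA members were at an unadjusted p under 0.05. DESeq2 called 8 nuclear members lower, against 2.79% of all genes, and limma-voom called 0. The nuclear median was -0.32, with 14 of 92 positive, and the mtDNA median was -0.13. Over the 7 mtDNA members above 10 CPM the median was -0.05. Short and well expressed genes had a median of -0.28, with 27.7% positive. The smallest p values belonged to Ndufb1-ps (-0.91, SE 0.25, adjusted p = 0.0702 in edgeR) and Cox7a2l (-0.80, SE 0.23, adjusted p = 0.0805 in edgeR). Without lipid-laden MDM number 221, edgeR called 3 nuclear members.

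**Figure D5:**
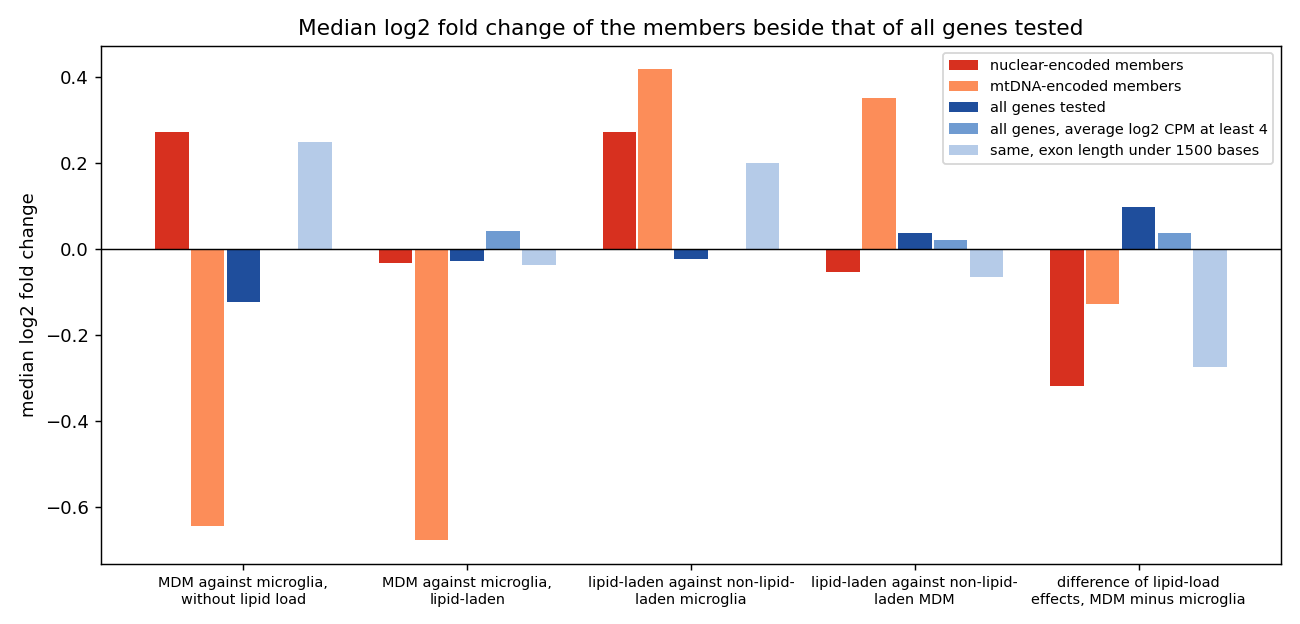
Median log2 fold change of the nuclear and mtDNA members beside that of all genes tested, of genes with a mean log2 CPM of 4 or more, and of those among them with an exon length under 1500 bases. Nuclear medians lie near those of short, well expressed genes in all 5 comparisons, while the mtDNA medians of -0.64 and -0.68 for MDM against microglia do not. Over the 7 mtDNA members above 10 CPM, not drawn, these were -0.68 without and -0.52 with lipid load.

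The alternative isoforms Cox4i2, Cox7a1, Cox6b2 and Ndufa4l2 had group means of a few CPM or less, unlike Cox6a2. Per length Cox6a2 stood at 39.9 RPKM in microglia and 42.0 in lipid-laden microglia, and at 8.80 and 16.1 RPKM in MDM and lipid-laden MDM. Cox4i2, the isoform known to replace Cox4i1 at low oxygen, was at 3.93, 1.18, 1.87 and 1.77 CPM in microglia numbered 221, 224, 431 and 718 and at 5.22, 2.90, 6.59 and 3.36 CPM in lipid-laden microglia. It was at 1.40, 0.302, 2.08 and 1.18 CPM in MDM, and at 4.74, 2.81 and 1.32 CPM in lipid-laden MDM numbered 221, 224 and 718. Each same-numbered pair was higher with lipid load, but the groups overlapped, and neither comparison passed (log2 fold changes 1.04 and 1.25, adjusted p = 0.722 and 0.365 in edgeR). Per length, Cox4i1 stood at 525 RPKM against 3.44 for Cox4i2.

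Ndufa4l2, a hypoxia-inducible relative of Ndufa4, was at 0.207, 0, 0.468 and 1.14 CPM in microglia and 1.51, 0.668, 1.24 and 4.98 CPM in lipid-laden microglia (log2 fold change 2.19, SE 1.48, adjusted p = 0.715 in edgeR). Ndufa4 itself, now placed in complex IV, was at 99.4 ± 11.5, 114 ± 11.7, 76.3 ± 11.0 and 101 ± 24.4 CPM in microglia, lipid-laden microglia, MDM and lipid-laden MDM. Cox7a1, the muscle isoform of subunit 7a, was at 2.91 ± 0.548, 4.21 ± 2.42, 2.68 ± 1.37 and 4.89 ± 2.07 CPM, and Cox7a2 at 108 ± 7.72, 129 ± 22.4, 129 ± 13.4 and 119 ± 35.2. Cox6b2, best known from testis, was at 1.17 ± 0.864, 2.13 ± 1.80, 4.65 ± 1.08 and 2.23 ± 0.867 CPM. Cox6b2 passed in no comparison in edgeR (MDM against microglia 1.98, adjusted p = 0.158) but did in limma-voom there (adjusted p = 0.0447), and at such levels a few counts decide a value.

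The ring of complex V is built from identical proteins that come from 3 genes, Atp5g1, Atp5g2 and Atp5g3. Atp5g1 was at 128 ± 19.1, 157 ± 25, 158 ± 17.5 and 145 ± 34.1 CPM, Atp5g2 at 57.5 ± 9.69, 66.6 ± 15.3, 50.6 ± 9.86 and 59.2 ± 9.08, and Atp5g3 at 91.2 ± 11.3, 99.1 ± 13.2, 103 ± 18.4 and 103 ± 18.3. No comparison of these genes passed in edgeR.

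Mitochondrial genes outside the rule were counted in lists chosen for their roles, and each count is to be read against the 10.7% of all genes higher and 12.5% lower in MDM than in microglia. In MDM against microglia, 7 of 26 tested genes of the tricarboxylic acid cycle and pyruvate dehydrogenase were higher and 1 lower. Mdh2, malate dehydrogenase of the mitochondrial matrix, was at 1735 ± 144 CPM in MDM and 468 ± 94.1 in microglia (log2 fold change 1.89, SE 0.16). Pdk1, a kinase that inhibits pyruvate dehydrogenase, was lower at 48.6 ± 11.9 against 126 ± 23.4 CPM (-1.38, SE 0.19). Among 18 electron carriers and related genes, 2 were higher and 2 lower. Gpd2, which feeds electrons from glycerol 3-phosphate into the chain, was at 206 ± 77.8 against 27.5 ± 5.33 CPM (2.90), Cycs, cytochrome c, at 108 ± 16.4 against 63.9 ± 12.5 (0.75), and Coq7, an enzyme of coenzyme Q synthesis, at 20.2 ± 2.95 against 63.3 ± 10.4 (-1.65).

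Genes that act on mtDNA and its RNA had 1 of 27 higher and 3 lower, a share of lower genes close to the 12.5% of all genes. Polg, the mtDNA polymerase, was at 11.8 ± 3.44 CPM in MDM and 37.8 ± 4.20 in microglia (log2 fold change -1.67, SE 0.30), and Lrpprc, which stabilises mitochondrial messenger RNA, at 39.1 ± 11.3 and 76.5 ± 16.1 (-0.97, SE 0.23). Of 77 mitochondrial ribosomal protein genes 8 were higher and 1 lower, a share of higher genes close to the 10.7% of all genes. Of 36 assembly genes outside the rule 1 (Cox14) was higher, and of 15 genes of uncoupling and reactive oxygen handling 5 were higher, Prdx5, Txn2 and Gpx1 among them. Of 26 outer membrane and import genes 1 was higher and 1 lower, and of 8 regulators of mitochondrial biogenesis none passed in this comparison (0 in edgeR with and without the block). In edgeR 1 of these 8 was lower in lipid-laden MDM than in MDM, against 2.96% of all genes. Likewise 1 was lower in lipid-laden MDM than in lipid-laden microglia, against 0.579% of all genes.

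In the lipid-load comparison of MDM, several of these genes were called in the opposite sense to the comparison of origins, with which it shares the MDM libraries. Of all genes 5.21% were higher and 2.96% lower there. Mdh2 was at 630 ± 152 CPM in lipid-laden MDM (log2 fold change -1.46, SE 0.18) and Gpd2 at 56.3 ± 8.39 (-1.87, SE 0.38), both lower than in MDM. Coq7 at 62.4 ± 27.3 (1.63, SE 0.25), Etfdh, which passes electrons from fatty acid oxidation to the chain, at 113 ± 11.4 against 56.7 ± 17.4 (0.99, SE 0.25), and Pdk1 at 81.6 ± 7.22 (0.75, SE 0.20) were higher. Between the lipid-laden cells 4 of 17 hypoxia genes were lower in MDM and 0 higher, against 0.579% lower and 2.2% higher of all genes, with Bnip3l among them at 137.9 ± 12.7 against 266 ± 59.3 CPM (-0.95, SE 0.17). In microglia none of these lists had a call in edgeR. The hypoxia list had 17 of 17 positive there, with a median of 0.79. Its members with the smallest p were Ndrg1, Bnip3l and Ldha, and 7 of the 17 passed with the number as a block, beside 0.802% of all genes. Ndrg1, a gene known to rise at low oxygen, was at 77.9 ± 40.3 against 19.4 ± 6.42 CPM (log2 fold change 2.00, adjusted p in edgeR 0.0717, and 0.0117 with the block). In lipid-laden MDM it was at 24.7 ± 5.32 CPM against 88.5 ± 14.8 in MDM, and the difference of the 2 effects passed (-3.85, SE 0.56, adjusted p = 0.0031 in edgeR).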

How the data were processed

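The authors deposited 1 table of whole-number read counts per gene for 15 libraries, not normalized, per the file header. Per the labels' protocols, RNA of the sorted cells was primed with oligo-dT and template-switched. Per the submitters' processing notes, reads were placed on mm10; which aligner, counter and strand setting were used is not given in the labels.

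The test was edgeR's (version 4.0.16, R 4.3.3; quasi-likelihood, TMM, filterByExpr with a minimum count of 10 and a minimum total of 15) in 1 fit of all libraries with a coefficient per group, and p-values were adjusted over 14843 genes. Calls needed an adjusted p under 0.05. Each SE was obtained by dividing the absolute log2 fold change by the square root of F. DESeq2 1.42.0, limma-voom (limma 3.58.1), other scaling, no filter, a block for the library number, and leaving out each library were alternatives. The tests were tried on simulated counts first. Exon lengths are unions of GENCODE M21 basic transcripts. The row without a gene held 0 counts.

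Deviations from group means correlated between same-numbered libraries at r = 0.124 to 0.256 for the 4 microglial pairs and 0.107 to 0.168 for the 3 lipid-laden pairs, so numbers were taken to pair these. They reached 0.0272 to 0.123 for MDM and 0.0152 to 0.150 without lipid load, and were not taken to pair those. The ranges of the comparisons taken as paired and not paired partly overlapped. The pairing comes from the numbers in the titles and from these correlations.

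The members, gene lists and tests were chosen with earlier results of these data known. Named by rule were all mtDNA members, fixed core subunits and isoforms, per comparison up to 6 called members of smallest p in each direction (or 5 members where fewer than 5 passed), and up to 3 genes per list. Other called members were named after their values were seen.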

Additional observations from a re-analysis of the deposited data

Results flagged for a closer look

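In groups of 4 libraries, single libraries were set apart from the other 3 by Dixon's criterion at the 95% level in 5 of 72 groups of values tested, where chance alone would give 3.6. Atp5h was at 100.3 CPM in microglia number 224, below the 120 to 122 of the others, and at 140 CPM in lipid-laden microglia number 718, below 160 to 161. The nuclear members of complex V summed to 2835 CPM in microglia number 224, below 3185 to 3229. mt-Nd1 was at 1352 CPM in microglia number 431, above 794 to 880, and mt-Nd2 at 168 CPM in MDM number 431, above 104 to 115.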

How the results depend on the processing

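Main counts of members called (nuclear, mtDNA) were 0 and 0 for lipid load in microglia, 2 and 0 for lipid load in MDM, 20 and 4 for MDM against microglia, 0 and 1 for the lipid-laden cells, and 0 and 0 for the difference of effects. With the library number as a replicate block, edgeR gave 2 mtDNA members for lipid load in MDM, and 3 nuclear members for the difference, and with DESeq2 the block gave 8 and 2, 7 and 3, 41 and 6, 1 and 6, and 16 nuclear members in that order, beside 3.97%, 17.2%, 33.7%, 8.11% and 10.5% of all genes called. For MDM against microglia the block in edgeR gave 29 nuclear members higher and 1 lower, and 5 mtDNA members lower. Of all genes 12.6% were higher and 14.2% lower there. For lipid load in MDM it gave 1 nuclear member higher and 2 lower, beside 6.12% and 4.18% of all genes. The block left the other counts in edgeR as they were. For MDM against microglia upper-quartile scaling gave 13 nuclear members, and leaving out 1 library 11 to 22, the lowest without MDM number 221. For lipid load in MDM the nuclear count was 0 with no filter or with subunits only, 1 with the compared groups alone, 4 without both lipid-laden libraries numbered 221, and 0 to 2 without 1 library, while the mtDNA count was 0 to 1 without 1 library. For the lipid-laden cells the mtDNA count was 4 with DESeq2, 3 with limma-voom, 0 without both libraries numbered 221, and 0 to 1 without 1 library. For the difference DESeq2 gave 8 nuclear members, and leaving out 1 library gave 0 to 3. The cause of these shifts was not tested. Among the named members 764 of the values kept direction and side of the threshold, 49 newly passed, 22 no longer passed and 8 turned sign, all 8 with 1 library left out. Without 1 library, Cox6a2 in microglia ranged from -0.16 to 0.36 (-0.058 without lipid-laden 224 and -0.13 without 221), and in the lipid-laden cells mt-Cytb from -0.69 to 0.041 (the highest without MDM 224) and Cox7a2l from -0.12 to 0.12 (0.035 without MDM 224, 0.015 without microglia 221 and 0.0097 without MDM 718). Depth limits the isoforms near 0 counts, where a few reads set a value.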
